A study of Mus musculus with 32 samples.

Results

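The dystrophin-associated complex is described here through 8 genes: Dmd, Utrn, Dag1, Sgca, Sgcb, Sgcd, Sspn and Sntb1. They were chosen by gene symbol from the 54838 genes of a count table, and each was read in every library and passed the filter on low counts in every comparison. The table holds total RNA sequencing from 3 hind leg muscles, the gastrocnemius, the quadriceps and the tibialis, and all mice were males of up to 3 months. Wild-type mice were compared with knock-in mice in which both copies of Gne carry M743T. The enzyme it encodes starts the synthesis of sialic acid, and variants of the human gene cause GNE myopathy. Knock-in animals are labelled healthy or sick, and the labels do not say by which signs. The 32 libraries form 9 groups, with 4 wild-type, 3 healthy and 3 sick libraries of gastrocnemius and with 4, 4 and 3 libraries in that order of quadriceps and of tibialis. The study states 4 mice per state, so muscles of a state share mice, but the labels name no mouse, litter, day or batch for a library, so a p-value speaks only of the spread among libraries, part of which may be technical. Knock-in mice of both kinds carry the same Gne alleles, so a difference between sick and healthy animals is not a difference of Gne genotype. The tissue is whole muscle, in which fewer cells of a type and less RNA per cell cannot be told apart.

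The complex spans the plasma membrane of the muscle fibre and ties the actin cytoskeleton to the basement membrane. Dystrophin, or utrophin in its place, binds actin inside the cell. It holds beta-dystroglycan in the membrane, and alpha-dystroglycan outside carries the sugar chains that bind laminin. Sarcoglycans and sarcospan form a side complex that stabilises dystroglycan, and syntrophins and dystrobrevins on the inner face anchor signalling proteins. Loss of dystrophin or of a sarcoglycan is known to cause muscular dystrophy, and utrophin in adult muscle is known mostly from nerve and tendon contacts.

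Total counts per library ran from 7685164 to 42588233. Summed CPM (counts scaled to an equal library total by TMM) of 12 muscle fibre genes lay between 122636 and 241247 in every library, so the labelled tissue carried its defining transcripts. Wild-type gastrocnemius replicate 1 and wild-type tibialis replicate 3 stood apart, with low counts over long transcripts. An index of this, the median log2 deviation of 2555 genes of at least 8000 exon bases minus that of 2523 genes under 2000, was -0.703 and -0.698 there and between -0.287 and 0.294 in the other libraries. The 4 wild-type tibialis libraries held 59.1 to 79.6 summed CPM of 10 kidney tubule genes, 1 healthy gastrocnemius library 23.2, and the others at most 2.1. Healthy quadriceps replicate 4 held 3450 CPM of adipocyte genes, against 126 to 557 in the other libraries.

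The 2 wild-type libraries low in long transcripts bear on the members directly, because the members differ in exon length. Dmd has 23801 merged exon bases, Utrn 17108, Sgcd 8257, Dag1 6357, Sntb1 5324, Sspn 4996, Sgcb 4052 and Sgca 1735. In wild-type gastrocnemius replicate 1, log2 CPM differed from the mean of the other 3 libraries by -1.46 for Dmd, -1.34 for Utrn, -1.33 for Sgcd and -0.59 for Dag1, and by 0.74 for Sgca. In wild-type tibialis replicate 3 the same differences were -1.05, -1.17, -0.92, -0.54 and 0.56. Dmd, Utrn and Sgcd, the longest members, were low in both libraries and Sgca, the shortest, was high, as the plot of members against exon length shows. Sntb1 departs from that order, as the lowest member in the tibialis library. Folds of sick against wild type in gastrocnemius and tibialis include these libraries, and the values without them are given beside each member.

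**Figure D1:**
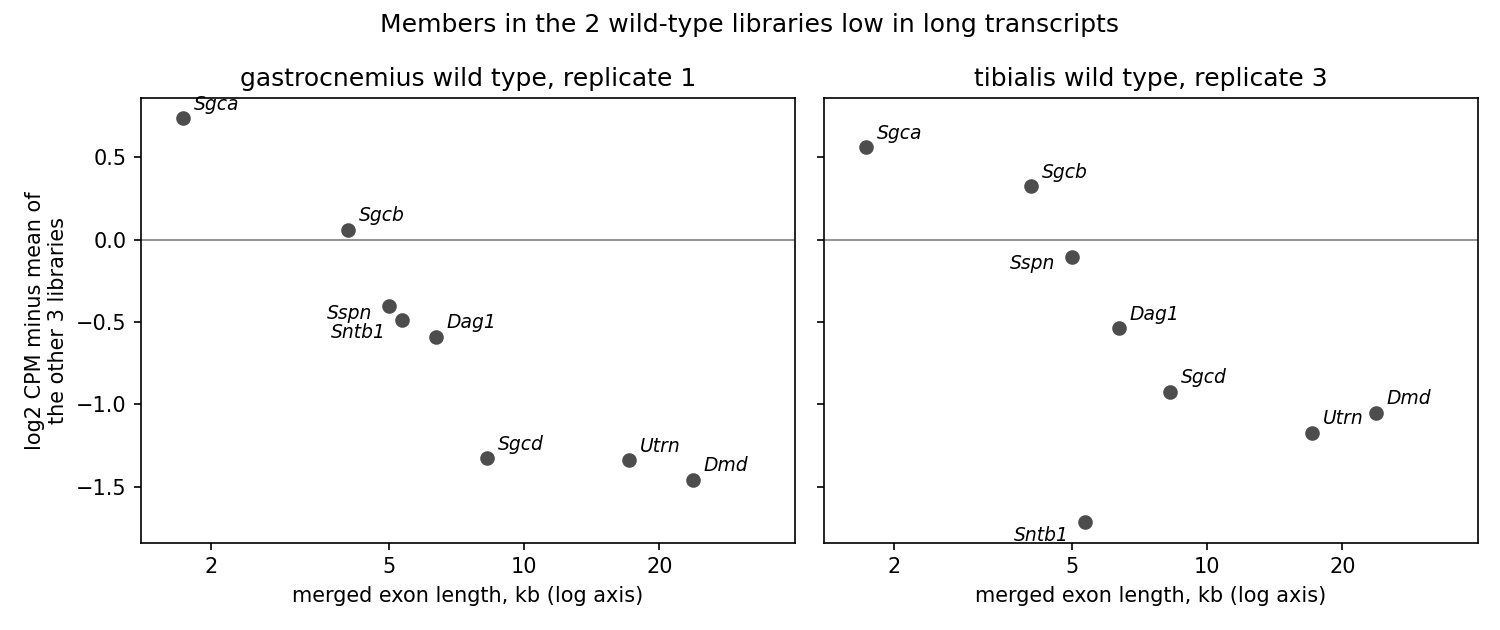
Log2 CPM of each member in wild-type gastrocnemius replicate 1 and wild-type tibialis replicate 3 minus the mean of the other 3 libraries of the group, plotted against merged exon length in kb on a log axis. Points fall from 0.74 and 0.56 for Sgca to -1.46 and -1.05 for Dmd, and Sntb1 lies at -1.72 in the tibialis library.

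Per length, the members were present at very different levels. Mean CPM per kb of exon over the 32 libraries was 99.0 for Sgca, 52.9 for Dag1, 38.0 for Sgcb and 17.1 for Sspn, followed by 8.01 for Dmd, 3.55 for Utrn, 2.93 for Sntb1 and 2.43 for Sgcd. Sgcd, which encodes delta-sarcoglycan, was the lowest of the 8 members on this scale. Merged exons count every annotated isoform, so long genes with rare exons look lower than their main transcript would.

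Sick knock-in muscle differed from wild type in 4 of the 8 genes, each in 1 muscle. In quadriceps Sgcd and Sspn fell, by 1.03 and 0.84 on the log2 scale. In tibialis Dmd and Dag1 rose, with log2 fold changes of 0.93 and 0.65. Utrn, Sgca, Sgcb and Sntb1 passed the test in none of the 3 muscles. The test was limma-voom over all genes, with Benjamini-Hochberg adjustment and a threshold of 0.05. In gastrocnemius 0 of 8 passed, where 8.22% of all genes tested were higher and 6.52% lower in sick mice. At an unadjusted p under 0.05, 3 of the 8 (Dmd, Dag1 and Sspn) would have passed there, as would 4654 of the 14155 genes tested. The authors' deposited table gives 1, Dag1. In quadriceps 2 of 8 were lower and 0 higher, where 7.49% of all genes were lower and 10.5% higher. In tibialis 2 of 8 were higher and 0 lower, where 8.44% were higher and 9.61% lower. Counts of 0 to 2 among 8 genes are small, and nothing is read from them about the complex as a whole. Markers of other cells moved with the same comparisons. Of erythrocyte genes 4 of 6 rose in gastrocnemius (summed CPM 169 to 303 in sick against 78.9 to 162 in wild-type libraries), of macrophage genes 4 of 8 in quadriceps (325 to 464 against 164 to 255), and all 9 kidney genes tested fell in tibialis. Of 10 fibroblast and fibro-adipogenic genes 7, 2 and 7 fell in gastrocnemius, quadriceps and tibialis. Of 12 muscle fibre genes 2 rose and 3 fell in tibialis. Their summed CPM there was 150405 to 230332 in sick against 129332 to 186389 in wild-type libraries. The part of any of these markers in the members' changes was not tested. The median log2 fold change of the members was 0.31, 0.12 and 0.35 in gastrocnemius, quadriceps and tibialis, and that of all genes tested -0.03, 0.00 and -0.05.

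**Figure D2:**
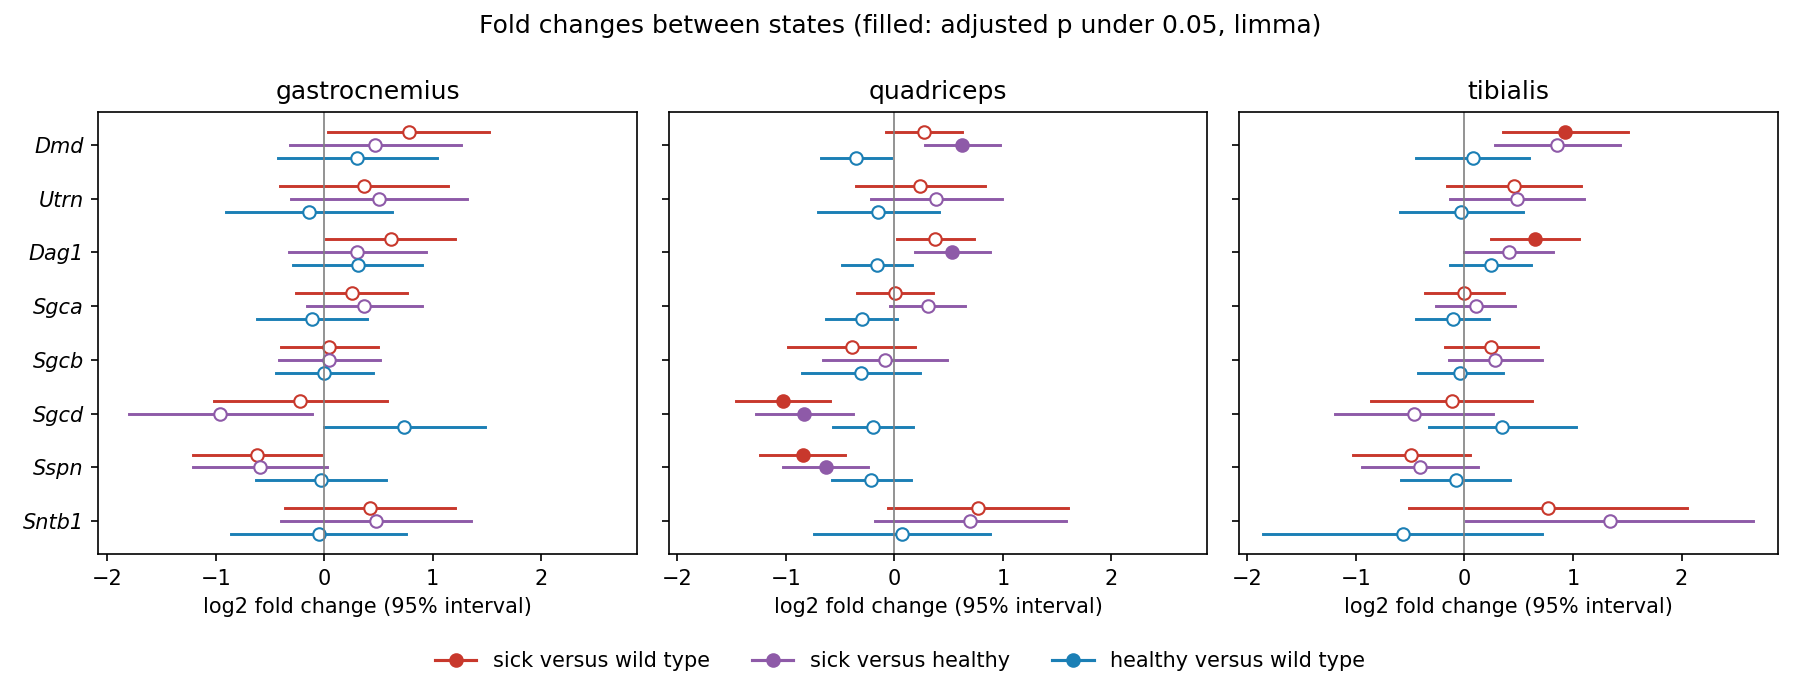
Log2 fold change of each member with its 95% interval in the 3 comparisons of states, by muscle, with filled points where the limma adjusted p was under 0.05. Filled points are Sgcd and Sspn below 0 and Dmd and Dag1 above 0 in quadriceps, and Dmd and Dag1 in tibialis.

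Promoter sequence is shown for the 4 genes that changed, so that the pair that rose and the pair that fell can be read side by side. RefSeq windows (GRCm38.p6, 250 bases before to 50 after a start) were found for 7 of the 8 members, 10 windows in all, and Sntb1 had none. The lines give the 150 bases before 1 start of each gene, 5′ to 3′ on the gene's strand, with matches to the motifs searched in capitals. They lie at chrX:82948720-82948869 (plus strand, Dmd), chr9:108263959-108264108 (minus, Dag1), chr6:145933972-145934121 (plus, Sspn) and chr11:47379326-47379475 (minus, Sgcd).
Dmd: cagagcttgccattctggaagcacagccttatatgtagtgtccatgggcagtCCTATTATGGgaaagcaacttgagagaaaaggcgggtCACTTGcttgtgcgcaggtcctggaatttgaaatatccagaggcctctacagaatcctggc
Dag1: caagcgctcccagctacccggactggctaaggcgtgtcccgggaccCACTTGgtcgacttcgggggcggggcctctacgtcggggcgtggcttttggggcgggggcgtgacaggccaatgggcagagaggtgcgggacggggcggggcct
Sspn: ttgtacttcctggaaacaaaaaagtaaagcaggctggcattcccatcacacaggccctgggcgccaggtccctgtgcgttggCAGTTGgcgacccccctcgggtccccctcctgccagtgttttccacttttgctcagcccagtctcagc
Sgcd: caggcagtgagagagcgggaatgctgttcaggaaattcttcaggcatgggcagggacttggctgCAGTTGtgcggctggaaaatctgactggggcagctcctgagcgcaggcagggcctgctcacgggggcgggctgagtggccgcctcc
The motifs, searched on both strands, were the E-box CANNTG bound by myogenic factors, the FoxO core GTAAACA, the N-box TTCCGG of synaptic promoters, the MEF2 site and the CArG box of serum response factor. The Dmd line shows an E-box and a CArG box, and its whole window of 300 bases held 3 E-boxes, 1 MEF2 site and 1 CArG box. The other Dmd window, at a start inside the gene, and the other Sspn window, at a start upstream of the one shown, held no match. The Sgcd and Utrn starts lie inside their GENCODE genes. The windows shown held 1 E-box for Dag1, 1 for Sspn and 2 for Sgcd, and the Utrn window held 7. Of 32851 RefSeq promoter windows, 72.3% held an E-box, 3.19% a MEF2 site, 1.63% a CArG box, 3.65% the FoxO core and 14.9% the N-box. No member window held the FoxO core or the N-box. The Utrn window, 10:12861686-12861985, does not reach the annotated 5′ end of the gene at 12869365, which was not searched. A match is a run of letters, and no binding was measured.

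Dmd (ENSMUSG00000045103; GRCm38 X:82948870-85206141, plus strand) encodes dystrophin, the actin-binding protein whose loss causes Duchenne muscular dystrophy. In tibialis its CPM was 165, 165, 79.2 and 164 in wild type, 157, 129, 137 and 152 in healthy knock-in and 331, 240.4 and 219 in sick knock-in libraries. All 3 sick libraries lay above all 8 others, and the wild-type library at 79.2 was replicate 3, low in long transcripts. The log2 fold change of sick against wild type was 0.93 ± 0.26 (estimate ± SE; adjusted p = 0.0328, limma), and 0.65 (adjusted p = 0.0332) without that library. Without sick replicate 1, the highest, it was 0.75 (adjusted p = 0.103), and with the index of long transcripts as a covariate 0.47 (adjusted p = 0.205). The sick tibialis libraries had index values of 0.181, 0.294 and 0.186, above the wild-type range of -0.698 to 0.111. The call was also lost without sick replicate 2, with the replicate number as a block and with only the 2 groups in the fit, and it was kept in 10 of 15 alternatives. Against healthy knock-in the change was 0.85 ± 0.26 (adjusted p = 0.0562).

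In gastrocnemius Dmd CPM was 71.6, 189.6, 193 and 211 in wild type, 226, 172 and 186 in healthy and 260.1, 226 and 314 in sick libraries. Sick and wild-type values did not overlap, yet the log2 fold change of 0.78 ± 0.34 did not pass (adjusted p = 0.136, 95% interval 0.03 to 1.52), and it was 0.42 without wild-type replicate 1. In quadriceps the values were 206, 219, 186 and 177 in wild type, 159, 162, 156 and 134 in healthy and 259.6, 273 and 180.0 in sick libraries. The sick libraries there were above all healthy ones, with a log2 fold change of 0.63 ± 0.16 (adjusted p = 0.0227), but 1 of 3 lay within the wild-type range. Sick against wild type was 0.27 ± 0.16 (adjusted p = 0.235). By group mean ± SD, CPM ran from 267 ± 44.6 in gastrocnemius sick knock-in, 263 ± 59.4 in tibialis sick knock-in, 238 ± 50.4 in quadriceps sick knock-in, 197 ± 19.1 in quadriceps wild type, 195 ± 28.1 in gastrocnemius healthy knock-in, 166 ± 63.8 in gastrocnemius wild type, 153 ± 12.7 in quadriceps healthy knock-in, 144 ± 12.8 in tibialis healthy knock-in and 143 ± 42.7 in tibialis wild type. Only the step from sick to wild-type quadriceps was larger than the pooled SD of its neighbours.

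Utrn (ENSMUSG00000019820; 10:12382188-12869365, minus strand) encodes utrophin, the close relative that can stand in for dystrophin. Its CPM in tibialis was 68.8, 68.2, 28.2 and 56.5 in wild type, 42.6, 53.4, 46.9 and 63.2 in healthy and 68.4, 63.6 and 83.6 in sick libraries. In quadriceps it was 59.6, 58.3, 52.5 and 54.1, 31.4, 46.8, 46.8 and 94.3, and 65.9, 70.4 and 60.6 in the same order. The sick quadriceps libraries lay just above all wild-type ones, and the healthy library at 94.3 was replicate 4, which also held the 3450 CPM of adipocyte genes. In gastrocnemius the wild-type libraries held 29.3, 83.8, 77.8 and 64.1, the healthy ones 68.0, 61.8 and 38.5 and the sick ones 74.1, 95.1 and 65.3, with overlap throughout. Sick against wild type, the log2 fold change was 0.37 ± 0.35 in gastrocnemius, 0.24 ± 0.27 in quadriceps and 0.45 ± 0.28 in tibialis (adjusted p = 0.494, 0.553 and 0.266, limma). The 95% intervals were -0.41 to 1.14, -0.35 to 0.83 and -0.16 to 1.07, so a change of 1 on the log2 scale lay outside the interval in quadriceps only. Without the libraries low in long transcripts, the estimates in gastrocnemius and tibialis were 0.03 and 0.15. Group means ran from 78.2 ± 15.3 in gastrocnemius sick knock-in to 51.5 ± 8.98 in tibialis healthy knock-in, and no step between neighbours was larger than their pooled SD.

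Dag1 (ENSMUSG00000039952; 9:108204634-108263958, minus strand) encodes the precursor that is cut into alpha- and beta-dystroglycan. In tibialis its CPM was 236, 296, 182 and 262 in wild type, 261, 314, 282 and 277 in healthy and 377, 424 and 332 in sick libraries. All 3 sick libraries were above all others of the muscle, and the log2 fold change against wild type was 0.65 ± 0.19 (adjusted p = 0.0345, limma). Without wild-type replicate 3 it was 0.50 (adjusted p = 0.0535), and with the index of long transcripts as a covariate 0.37 (adjusted p = 0.186). The call was also lost without wild-type replicate 1, sick replicate 1 or sick replicate 2, with sample quality weights, with the replicate block and with only the 2 groups in the fit, and it was kept in 7 of 15 alternatives. In quadriceps the libraries held 347, 392, 349.9 and 319 in wild type, 299, 351, 308 and 292 in healthy and 473, 548 and 347 in sick mice. The sick library at 347 lay inside both other ranges, and the change against healthy passed at 0.53 ± 0.16 (adjusted p = 0.0389) while that against wild type was 0.38 ± 0.16 (adjusted p = 0.115). In gastrocnemius the values were 204, 353, 266 and 307 in wild type, 339, 399 and 311 in healthy and 302, 399.7 and 619 in sick libraries, with 1 sick library well above the rest and the change at 0.61 ± 0.27 (adjusted p = 0.14), or 0.47 without wild-type replicate 1. Group means ran from 456 ± 102 in quadriceps sick knock-in, 440.4 ± 163 in gastrocnemius sick knock-in, 378 ± 45.7 in tibialis sick knock-in, 352 ± 30.1 in quadriceps wild type, 349.9 ± 45.1 in gastrocnemius healthy knock-in, 313 ± 26.6 in quadriceps healthy knock-in, 284 ± 22.3 in tibialis healthy knock-in, 282 ± 63.2 in gastrocnemius wild type and 244 ± 48.4 in tibialis wild type. The step between healthy gastrocnemius and healthy quadriceps and the next one, to healthy tibialis, were larger than the pooled SD of their neighbours, and the others were not.

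Of the 3 sarcoglycans among the members only Sgcd passed a test of sick against wild type. Sgca (ENSMUSG00000001508; 11:94962791-94976327, minus strand), alpha-sarcoglycan, is the dystroglycan-facing subunit made only in striated muscle. Its CPM lay between 116 and 247, with the highest value in wild-type gastrocnemius replicate 1 and another high one, 234, in wild-type tibialis replicate 3. Group means ran from 201 ± 44.3 in gastrocnemius sick knock-in to 146 ± 22.6 in quadriceps healthy knock-in. Sick against wild type, its log2 fold change was 0.25 ± 0.23 in gastrocnemius, 0.00 ± 0.16 in quadriceps and -0.00 ± 0.17 in tibialis, with 95% intervals of -0.26 to 0.76, -0.35 to 0.36 and -0.37 to 0.36. None passed, and a change of 1 on the log2 scale lay outside all 3 intervals. Without the libraries low in long transcripts, Sgca was at 0.42 in gastrocnemius (adjusted p = 0.178) and 0.13 in tibialis (adjusted p = 0.488).

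Sgcb (ENSMUSG00000029156; 5:73632749-73647790, minus strand), beta-sarcoglycan, forms the core of the side complex with delta-sarcoglycan. The widest spread was in wild-type quadriceps, where the libraries held 231, 207, 258 and 109.8 CPM. The sick quadriceps libraries held 152, 131 and 145, below 3 of the 4 wild-type ones and above replicate 4. The log2 fold change was -0.39 ± 0.27 (adjusted p = 0.307, limma), and without wild-type replicate 4 it was -0.68 (adjusted p = 0.0325). In gastrocnemius and tibialis it was 0.05 ± 0.20 and 0.25 ± 0.20 (adjusted p = 0.896 and 0.385), and 0.06 and 0.32 without the libraries low in long transcripts.

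Sgcd (ENSMUSG00000020354; 11:46896253-47988969, minus strand), delta-sarcoglycan, is a gene of limb-girdle muscular dystrophy, as are Sgca and Sgcb. In quadriceps its CPM was 31.8, 31.1, 28.1 and 21.5 in wild type, 20.5, 19.2, 28.5 and 29.4 in healthy and 13.2, 13.6 and 14.1 in sick libraries. The 3 sick values were close together and below all 8 others. Sgcd fell by 1.03 ± 0.20 on the log2 scale against wild type (adjusted p = 0.0114, limma) and its change against healthy mice was -0.83 ± 0.21 (adjusted p = 0.0224). It kept its call against wild type under 14 of 15 alternatives, with values from -1.14 to -0.97, and lost it without sick replicate 2 (adjusted p = 0.0696).

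In gastrocnemius the Sgcd values were 7.39, 21.9, 16.9 and 19.4 in wild type, 30.6, 22.1 and 23.5 in healthy and 14.7, 10.5 and 14.1 in sick libraries. The healthy values lay above all values of both other groups. Sick against healthy was -0.96 ± 0.38 (adjusted p = 0.114), and the authors' deposited table gives -0.95 with an adjusted p of 0.0441. Sick against wild type was -0.22 ± 0.36 (adjusted p = 0.706), and -0.61 (adjusted p = 0.0705) without wild-type replicate 1, the library at 7.39. In tibialis the values were 18.3, 18.8, 10.2 and 22.6 in wild type, 19.4, 16.4, 28.1 and 24.9 in healthy and 20.8, 9.17 and 21.6 in sick libraries, with overlap and a change of -0.12 ± 0.34 (adjusted p = 0.826), or -0.35 (adjusted p = 0.454) without wild-type replicate 3. By group mean ± SD, CPM ran from 28.1 ± 4.71 in quadriceps wild type, 25.4 ± 4.53 in gastrocnemius healthy knock-in, 24.4 ± 5.28 in quadriceps healthy knock-in, 22.2 ± 5.27 in tibialis healthy knock-in, 17.5 ± 5.22 in tibialis wild type, 17.2 ± 6.96 in tibialis sick knock-in, 16.4 ± 6.35 in gastrocnemius wild type, 13.6 ± 0.444 in quadriceps sick knock-in and 13.1 ± 2.25 in gastrocnemius sick knock-in, and no step between neighbours was larger than their pooled SD.

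Sspn (ENSMUSG00000030255; 6:145931641-145965223, plus strand) encodes sarcospan, the small membrane protein that joins the sarcoglycans. In quadriceps its CPM was 91.6, 119, 117 and 90.7 in wild type, 91.2, 103, 96.4 and 68.2 in healthy and 46.3, 58.6 and 67.9 in sick libraries. The sick libraries were the lowest 3 of the 11, with 67.9 just under the lowest healthy value of 68.2. Sspn fell by 0.84 ± 0.18 on the log2 scale against wild type (adjusted p = 0.0148, limma) and its change against healthy mice was -0.63 ± 0.18 (adjusted p = 0.0332). The call against wild type was lost under 1 of 15 alternatives, without sick replicate 2 (-0.72, adjusted p = 0.0772).

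In gastrocnemius Sspn CPM was 73.5, 107, 109 and 79.3 in wild type, 81.0, 103 and 86.4 in healthy and 82.7, 37.0 and 65.5 in sick libraries. In tibialis it was 93.3, 108, 90.1 and 90.4, 83.9, 99.6, 96.3 and 80.8, and 96.7, 39.8 and 80.0 in the same order. In both muscles sick replicate 2 was the lowest library, as it was in quadriceps. Sick replicate 1 lay within the wild-type range in gastrocnemius and tibialis. The changes against wild type, -0.62 ± 0.27 and -0.49 ± 0.25, did not pass (adjusted p = 0.134 and 0.175), and they were -0.72 and -0.52 without the libraries low in long transcripts. Group means ran from 105 ± 15.7 in quadriceps wild type, 95.5 ± 8.52 in tibialis wild type, 92.3 ± 18.5 in gastrocnemius wild type, 90.2 ± 9.17 in tibialis healthy knock-in, 90.0 ± 11.3 in gastrocnemius healthy knock-in, 89.7 ± 15.1 in quadriceps healthy knock-in, 72.2 ± 29.3 in tibialis sick knock-in, 61.7 ± 23.1 in gastrocnemius sick knock-in and 57.6 ± 10.8 in quadriceps sick knock-in. The 3 sick groups were the lowest 3, and no step between neighbours was larger than their pooled SD. Exons of Sspn share 69 bases (1.38% of its length) with the antisense gene Sspnos, whose reads could not be told apart if the counting did not use strand.

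Sntb1 (ENSMUSG00000060429; 15:55636388-55906949, minus strand) encodes beta-1-syntrophin, an adaptor that binds dystrophin and signalling proteins. It was the member with the fewest reads, from 61 counts in a library, and with wide spread. In tibialis its CPM was 13.8, 22.6, 5.72 and 25.4 in wild type, 11.7, 11.9, 11.4 and 6.47 in healthy and 66.8, 10.2 and 25.1 in sick libraries. The library at 66.8 was sick replicate 1, while sick replicate 2 lay inside both other ranges. The change against wild type was 0.77 ± 0.59 (adjusted p = 0.365, limma) and 0.08 without sick replicate 1 or 0.34 without wild-type replicate 3. Against healthy mice it was 1.34 ± 0.61 (adjusted p = 0.153), for which the authors' deposited table gives 1.71 and an adjusted p of 0.00895.

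In quadriceps Sntb1 CPM was 7.81, 13.2, 5.40 and 8.15 in wild type, 7.15, 9.77, 6.28 and 16.6 in healthy and 10.2, 12.7 and 21.3 in sick libraries. In gastrocnemius it was 11.4, 22.4, 10.3 and 18.2, 13.2, 19.5 and 10.96, and 30.0, 12.5 and 20.7 in the same order. All these ranges overlapped, and the changes against wild type were 0.77 ± 0.38 and 0.42 ± 0.36 (adjusted p = 0.163 and 0.436). The gastrocnemius value was 0.28 without wild-type replicate 1. Group means ran from 34.1 ± 29.3 in tibialis sick knock-in to 8.65 ± 3.29 in quadriceps wild type, and the step from healthy gastrocnemius to healthy tibialis was the one larger than the pooled SD of its neighbours.

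**Figure D3:**
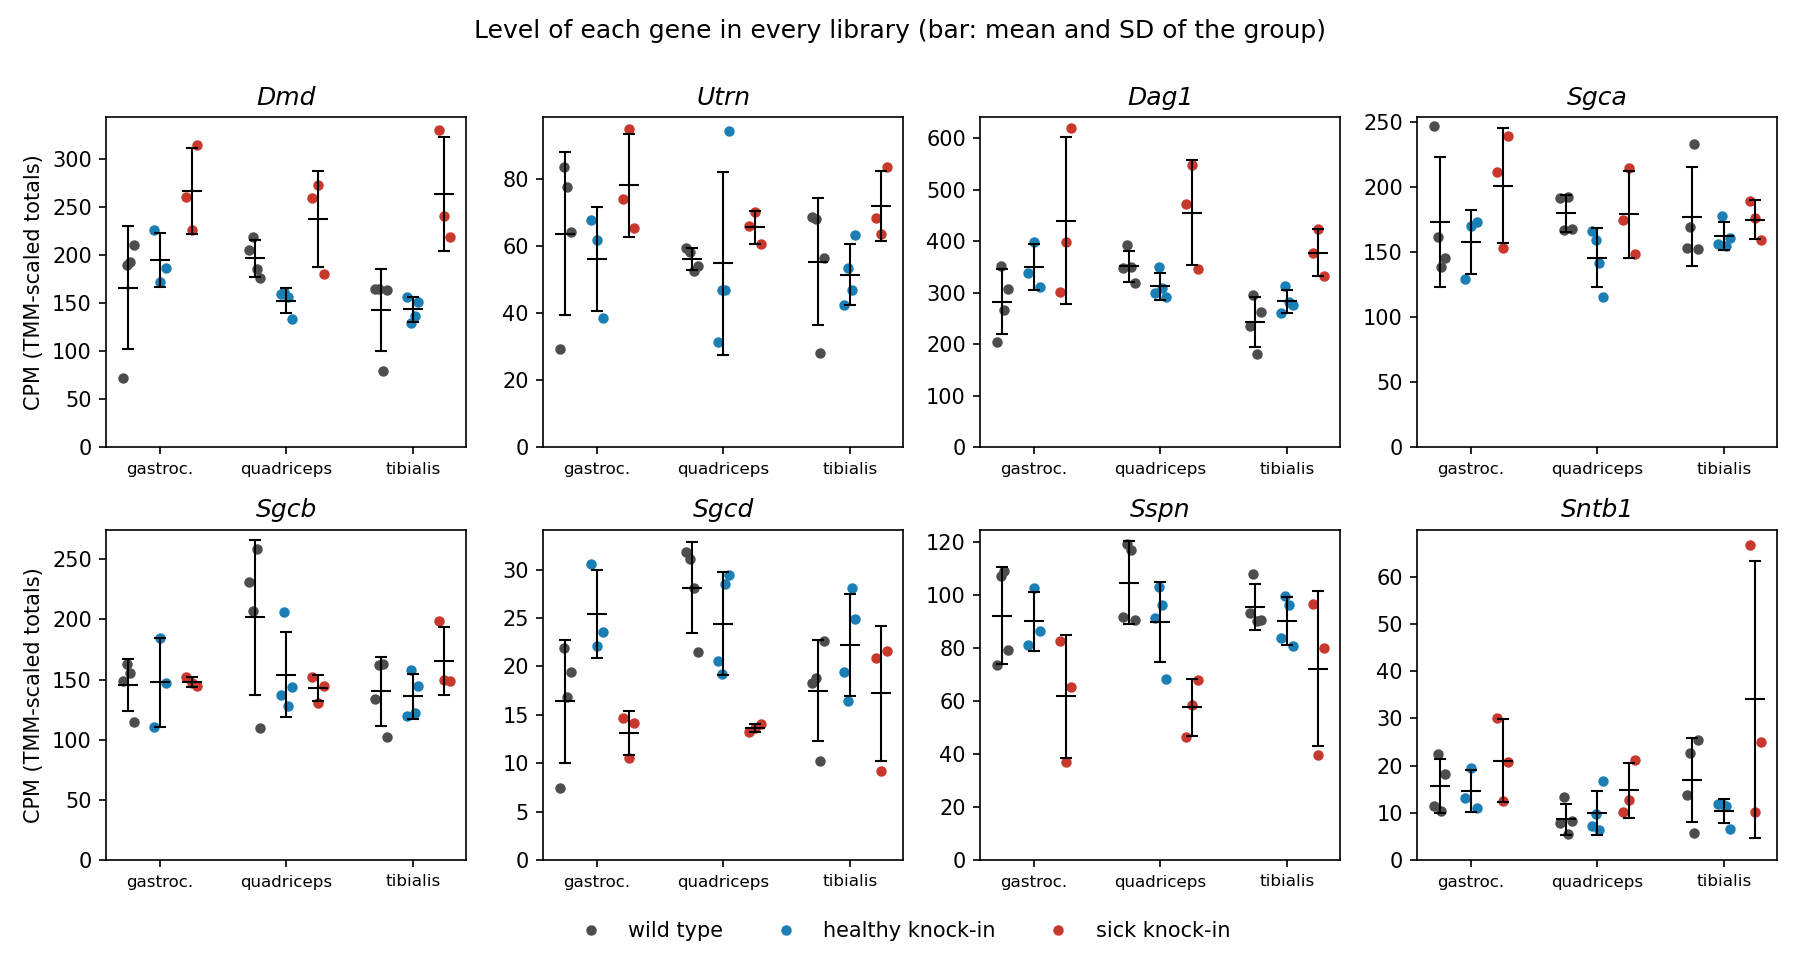
CPM of each member in every library, with points for libraries and bars for the mean and SD of each group, by muscle and state. Sick libraries are the highest for Dmd in tibialis (219 to 331) and the lowest for Sgcd (13.2 to 14.1) and Sspn (46.3 to 67.9) in quadriceps.

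The comparison of sick with healthy knock-in mice asks what goes with sickness at a fixed Gne genotype. In quadriceps 4 of 8 members passed. Dmd and Dag1 were higher and Sgcd and Sspn lower, where 10.1% of all genes tested were higher and 7.51% lower. Of 15 alternative settings, Dmd kept its call in 10, Sgcd in 9, Sspn in 6 and Dag1 in 5. Leaving out healthy replicate 3, sick replicate 2 or sick replicate 3 left 0 of the 4 calls, and leaving out healthy replicate 1 or 2 left 2. In gastrocnemius 0 of 8 passed, where 7.17% of all genes were higher and 6.90% lower, and in tibialis 0 of 8, where 5.03% were higher and 6.30% lower (limma). At an unadjusted p under 0.05, Sgcd would have passed in gastrocnemius, and Dmd and Sntb1 in tibialis. Of all genes tested, 4428 of 14155 would have passed in gastrocnemius and 4641 of 14520 in tibialis. This comparison shares its sick libraries with that against wild type, so the 2 are not independent.

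Healthy knock-in mice were compared with wild type to ask what the alleles do without sickness. No member passed in any muscle (limma), and 2 tests had an unadjusted p under 0.05. They were Sgcd in gastrocnemius at 0.74 ± 0.34 (adjusted p = 0.647, limma) and Dmd in quadriceps at -0.35 ± 0.15 (adjusted p = 0.999). Of all genes tested, 1083 of 14155 had an unadjusted p under 0.05 in gastrocnemius, 637 of 13799 in quadriceps and 716 of 14520 in tibialis. Without wild-type gastrocnemius replicate 1, the Sgcd value was 0.36 (adjusted p = 0.723). Few genes of any kind passed, 0.00706% of those tested in gastrocnemius, 0.0362% in quadriceps and 0.496% in tibialis, so the members' count of 0 is near the background. The authors' deposited table also calls 0 members in these comparisons.

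Between wild-type muscles no member passed either, where 1.07% of all genes differed between quadriceps and gastrocnemius, 2.58% between tibialis and gastrocnemius and 5.67% between tibialis and quadriceps. Sgcd in quadriceps against gastrocnemius was at 0.89 ± 0.31 on the log2 scale (adjusted p = 0.282, limma), and at 0.54 without the libraries low in long transcripts. Libraries of the same number deviated together in wild-type tibialis and quadriceps. With the replicate number as a block, Sntb1 was higher in tibialis than in quadriceps (0.88, adjusted p = 0.0294), against 0.88 ± 0.44 and an adjusted p of 0.270 without it. At an unadjusted p under 0.05, Sgcd passed in quadriceps against gastrocnemius, Dag1 and Sgcd in tibialis against quadriceps, and 0 members in tibialis against gastrocnemius. Of the 14708 genes tested, 1607, 3201 and 2196 passed at that level in these comparisons, in the same order.

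Whether the change with sickness differs between muscles was tested with interaction terms over all 32 libraries. No member passed in any of the 3 pairs, where 0% of all genes passed for quadriceps minus gastrocnemius, 0.204% for tibialis minus gastrocnemius and 0.243% for tibialis minus quadriceps. No member had an unadjusted p under 0.05, where 173, 420 and 1204 of 15229 genes did in the same order of pairs. The smallest p-values of members were those of Sgcb (0.65 ± 0.32) and Sgcd (0.92 ± 0.46) for tibialis minus quadriceps, with an adjusted p of 0.639 each (limma). That fit treats the libraries as independent. With state and replicate number as a block, 0 members passed, and the smallest adjusted p was 0.203, for Sgcb (limma). A call in 1 muscle for Dmd, Dag1, Sgcd or Sspn is therefore not shown to be a difference from the other muscles.

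Ratios of members within a library do not depend on how library totals are scaled. The log2 ratio of Sspn to Dmd CPM was -1.65, -2.61 and -2.26 in sick gastrocnemius, -2.49, -2.22 and -1.41 in sick quadriceps and -1.77, -2.59 and -1.45 in sick tibialis. In wild type it ran from -1.41 to 0.04, from -1.17 to -0.67 and from -0.86 to 0.19 in the same order of muscles, and in healthy mice from -1.48 to -0.75, from -0.97 to -0.65 and from -0.91 to -0.38. In each muscle every sick library lay below every other library, and the 2 highest values, 0.04 and 0.19, were those of the libraries low in long transcripts. The pair was picked with the values known, so no test was made. The ratio of Sgcd to Sgca was lower in every sick quadriceps library (-3.98 to -3.40) than in every wild-type (-2.96 to -2.42) and healthy one (-3.05 to -1.97). For Sgcd to Sgcb, the sick quadriceps libraries (-3.53 to -3.26) lay below the wild-type ones (-3.20 to -2.35). They overlapped the healthy ones (-3.42 to -2.17). The ratio of Dag1 to Dmd overlapped between sick and wild-type libraries in every muscle.

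**Figure D4:**
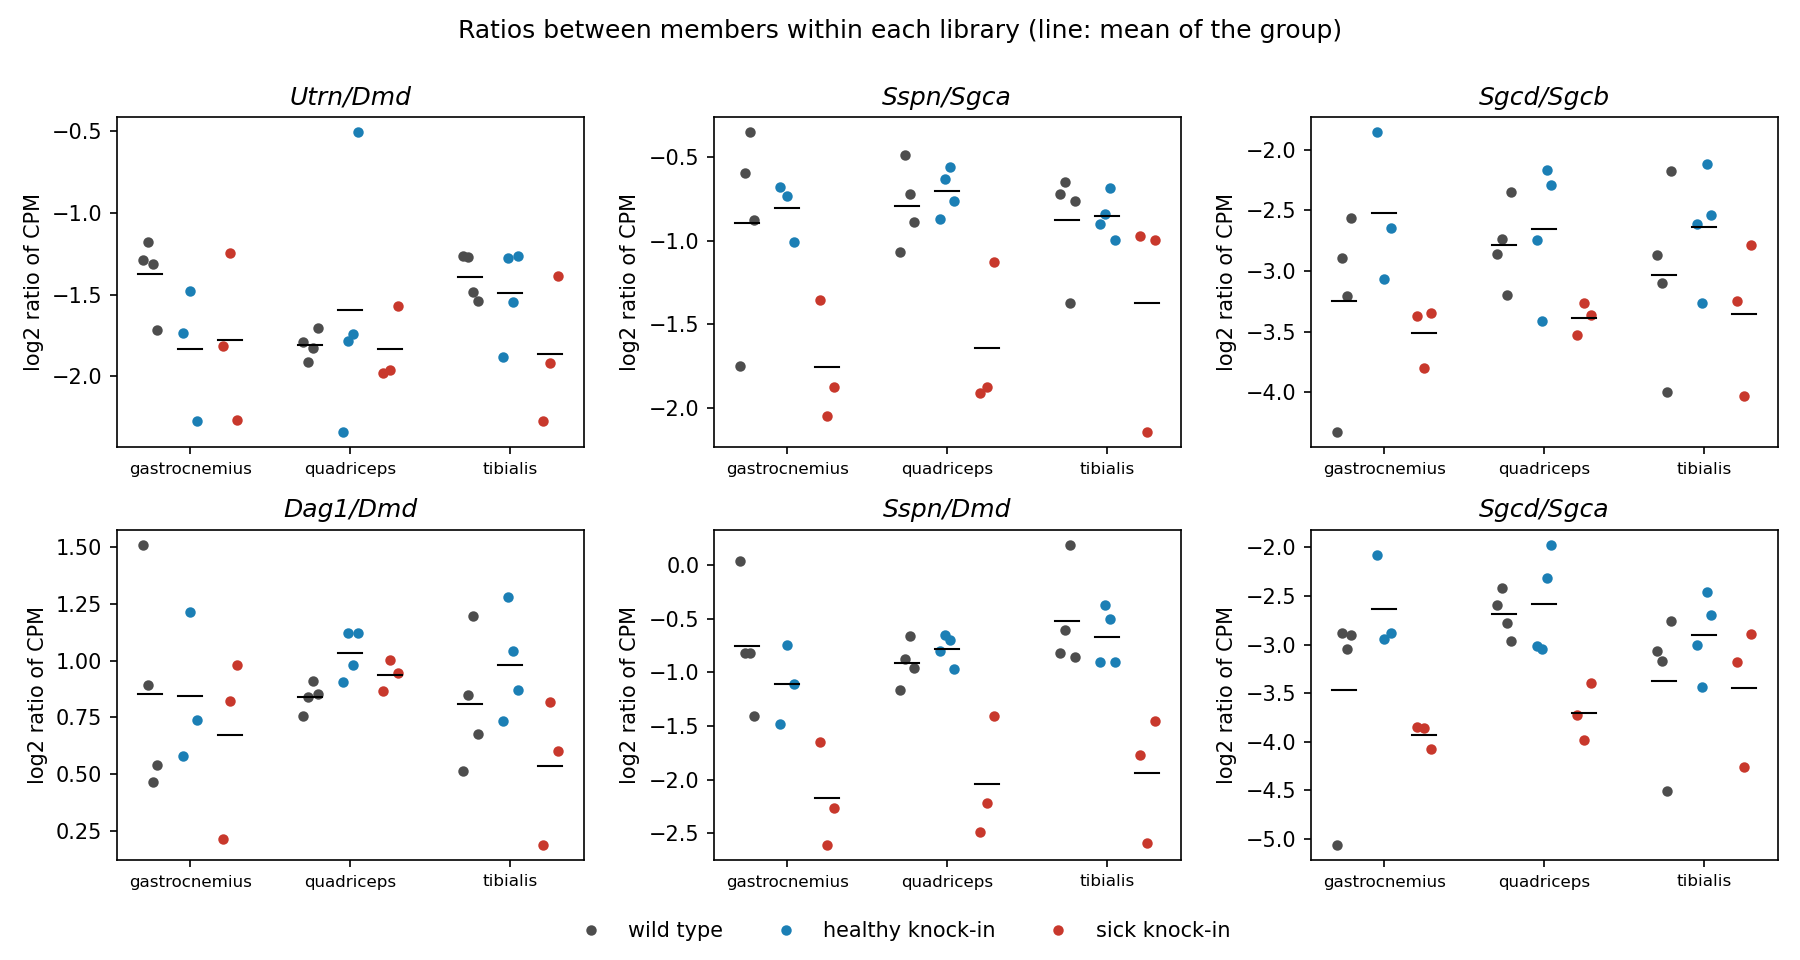
Log2 ratios of CPM between pairs of members in every library, by muscle and state, with a line at the mean of each group. For Sspn to Dmd the sick libraries (-2.61 to -1.41 over the 3 muscles) lie below all other libraries of their muscle.

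Over the 9 group means of log2 CPM, Dmd and Dag1 followed each other (Pearson r = 0.92), as did Dmd and Utrn (0.89) and Sgcd and Sspn (0.76). Dmd and Sspn ran opposite (-0.78), as did Utrn and Sspn (-0.84). The means include the 2 wild-type libraries low in long transcripts, in which Dmd, Utrn, Dag1 and Sgcd were low together. The part of those libraries in these r values was not tested. Of 13554 genes tested in all muscles, the 2 most alike were Lrrc61 and Naa16 for Dmd (0.994 each), Ewsr1 and Ppp1r12a for Utrn (0.987 and 0.986), Fam13b and Aff4 for Dag1 (0.990 and 0.986) and Arl5c and Gm42629 for Sgca (0.935 and 0.926). They were Klhl28 and Gnas for Sgcb (0.933 and 0.913), Tor1b and Zdhhc21 for Sgcd (0.982 and 0.980), Plxnd1 and Hras for Sspn (0.991 and 0.985) and Lmo4 and Zdhhc4 for Sntb1 (0.969 and 0.966). These are descriptions over 9 points that share muscles and states, picked as the highest of all genes compared.

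The rest of the complex gave few calls in sick against wild-type muscle. Sgce, the widely expressed epsilon-sarcoglycan, fell in tibialis (-0.72 ± 0.17, adjusted p = 0.0171, limma). Of 4 signalling partners tested, Nos1, the neuronal nitric oxide synthase that syntrophin anchors, rose in quadriceps (1.22 ± 0.26, adjusted p = 0.0155) and Scn4a, the muscle sodium channel, fell there (-0.63 ± 0.19, adjusted p = 0.0415). No signalling partner passed the threshold in gastrocnemius or tibialis.

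Outside the membrane, 11 extracellular ligands and their partners gave 0, 2 and 2 lower genes in gastrocnemius, quadriceps and tibialis and none higher, where 6.52%, 7.49% and 9.61% of all genes were lower. Lama4, a laminin chain found in vessel walls, fell in quadriceps and tibialis (-0.72 ± 0.21 and -1.03 ± 0.33), Nid2, nidogen 2, in quadriceps (-1.17 ± 0.35) and Bgn, biglycan, in tibialis (-1.03 ± 0.25). Lama2, the laminin chain that alpha-dystroglycan binds on the fibre, was at 0.03 ± 0.24, -0.01 ± 0.21 and -0.48 ± 0.38 and did not pass. The list's median log2 fold change was -0.24, -0.26 and -0.53, beside -0.03, 0.00 and -0.05 for all genes. Fibroblast and fibro-adipogenic markers moved with it: 7, 2 and 7 of 10 fell in the 3 muscles, and their summed CPM in tibialis was 804 to 1651 in sick against 2593 to 6066 in wild-type mice, 1665 to 3415 against 4099 to 11350 in gastrocnemius and 2974 to 4358 against 3908 to 10055 in quadriceps. Their part in the change of the ligands or of the members was not tested.

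Among cytoskeletal linkers, Ank3, ankyrin-G, rose in all 3 muscles, with 1.30 ± 0.24, 0.92 ± 0.23 and 1.21 ± 0.30 in gastrocnemius, quadriceps and tibialis. Ank3 has 34838 merged exon bases. Folds of genes outside the members are not given without the 2 wild-type libraries low in long transcripts. Flnc, filamin C, rose in gastrocnemius and quadriceps (1.88 ± 0.36 and 1.49 ± 0.37), and Synm, an intermediate filament protein tied to dystrobrevin, fell in both (-1.07 ± 0.33 and -1.11 ± 0.33). Ank2, ankyrin-B, fell in quadriceps (-0.86 ± 0.17). In counts, 2 rose and 1 fell of 10 tested in gastrocnemius, 2 and 2 of 9 in quadriceps and 1 and 0 of 9 in tibialis, where of all genes 8.22%, 10.5% and 8.44% were higher and 6.52%, 7.49% and 9.61% lower, in the same order of muscles. The integrin laminin receptor list gave 0 of 7 in every muscle, and membrane repair 1 of 6, Ano5, lower in quadriceps (-0.80 ± 0.19).

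The longest of these lists holds the enzymes that build the laminin-binding sugar chains of dystroglycan. Of 16 tested, 1 rose and 4 fell in gastrocnemius, 0 and 6 in quadriceps and 1 and 1 in tibialis, beside the percentages of all genes given above. Gmppb, which makes GDP-mannose, fell in all 3, with -2.27 ± 0.41, -1.42 ± 0.38 and -1.89 ± 0.31 (adjusted p = 0.00769, 0.0291 and 0.00534, limma). Pomk, the kinase of the core sugar, fell in gastrocnemius and quadriceps (-1.09 ± 0.28 and -1.32 ± 0.25), as did Pomgnt2 (-0.97 ± 0.26 and -1.06 ± 0.27) and B3galnt2 (-0.97 ± 0.21 and -0.90 ± 0.25), which build that core. Dpm1, a subunit of the dolichol-phosphate mannose synthase, rose in gastrocnemius and tibialis (0.67 ± 0.19 and 0.95 ± 0.27). The median of the list was -0.24, -0.26 and -0.13.

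**Figure D5:**
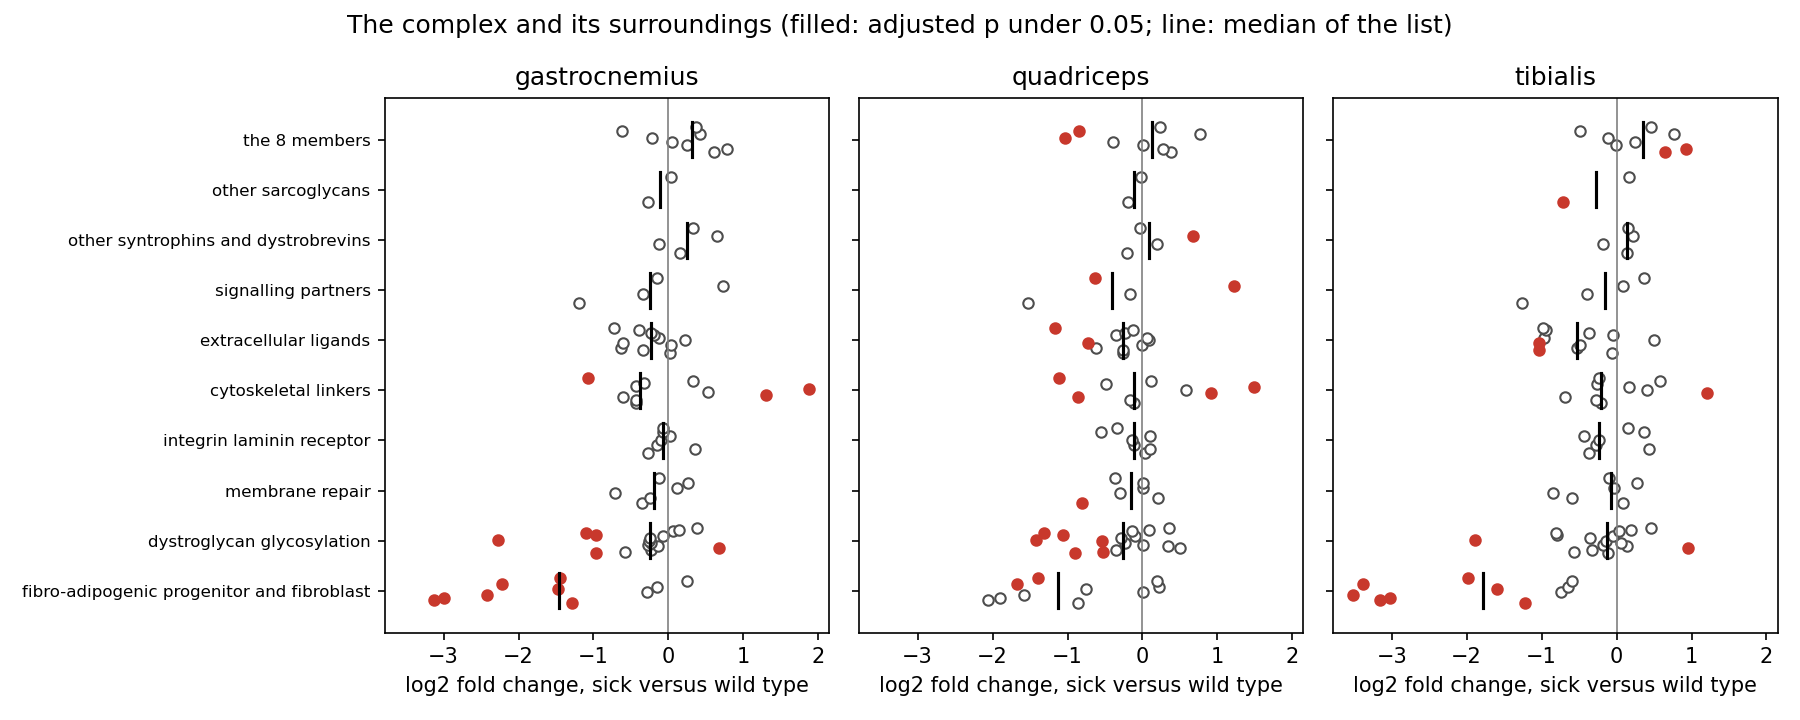
Log2 fold change of sick against wild type for the 8 members, the genes around the complex and the fibroblast markers, by muscle, with filled points where the limma adjusted p was under 0.05 and a line at each list's median. Fibroblast markers have the lowest medians and the members medians of 0.31, 0.12 and 0.35.

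The authors' deposited table, from their own model of the same counts, calls Sgcd and Sspn lower in sick quadriceps and Dmd and Dag1 higher in sick tibialis against wild type, as here. It also calls Dag1 higher in sick gastrocnemius, and against healthy mice Sgcd lower in gastrocnemius, Dmd and Sntb1 higher in tibialis and none in quadriceps. The share of all genes called in the authors' table was not computed, so nothing is read from the number of members it calls.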

How the data were processed

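Total RNA of 3 muscles was sequenced in 32 mouse libraries, grouped by the labels for muscle, genotype and phenotype. The members and the gene lists were chosen with earlier results of these data known. Per the file headers, the deposited table gives for each gene a raw count and a scaled count per library, and the authors' own log2 fold changes, standard errors and adjusted p-values. The scaled values times 1 factor per library give the raw counts. These factors were within 2.5e-09% of median-of-ratios size factors computed from the raw counts. Per the submitters' processing notes, cutadapt 1.18, TopHat2 2.1.1, HTSeq 0.6.0 and DESeq2 1.22.1 were used with GRCm38. No source used here gives their settings, the strand option or the annotation release. Of 54838 genes, 6252 carry marks for missing values. Because of these marks the unit of the raw columns is not recorded as counts, and count models were not run.

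Counts were fitted in R 4.3.3 with limma 3.58.1 (voom weights, TMM totals with trims of 0.3 and 0.05, 0.5 added to each count, robust moderation). Genes were tested where CPM reached what 10 counts are worth at the median library size, in at least the number of libraries of the smallest group, and where counts summed to 15 or more. The 3 states of a muscle shared a model, the 12 wild-type libraries another, and all 32 the interaction terms. Tests are two-sided, with Benjamini-Hochberg adjusted p-values over all genes tested and a threshold of 0.05. The scripts were tested on simulated data. None of the 42 replicate pairs looked like a repeated library (chi-square per gene 12.0 to 197). Depth ran from 7685164 to 42588233 counts, and members held 61 to 14132 counts per library. Gene coordinates and merged exon lengths are from GENCODE vM21 (GRCm38), promoters from RefSeq.

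Libraries of the same number and state in different muscles deviated together (median correlation 0.501, over 0.1 in 26 of 28 pairs), in all 4 wild-type pairs of quadriceps with gastrocnemius and of tibialis with quadriceps. The pairing comes from these data, since the labels do not say that a number marks a mouse. Genes named are the 8 members, in each list around the complex at most 3 called genes from either end of the fold changes of sick against wild type, the 2 genes most alike to each member by Pearson r over group means, and genes of a count of 5 or fewer. B3galnt2 and Lama2 are exceptions named after their values were seen. Results of some genes of the lists are not reported here. Alternatives were other totals, filters, weights and model sets, a replicate block, each library left out, and, chosen after seeing the data, the index of long transcripts and leaving out both libraries low in it.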

Additional observations from a re-analysis of the deposited data

Results flagged for a closer look

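In groups of 4 libraries, a value was picked out when its gap to the nearest other exceeded Dixon's 95% critical value for the group's range. Of 45 group values checked, 5 were picked out, and chance picks about 1 in 20. Dmd stood at 71.6 CPM in wild-type gastrocnemius replicate 1 and at 79.2 CPM in wild-type tibialis replicate 3, below the other 3 libraries of each group. The index of long against short transcripts was -0.703 and -0.698 in the same libraries. Sntb1 stood at 6.47 CPM in healthy tibialis replicate 4, against 11.4 to 11.9 in the other 3.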

How the results depend on the processing

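Counts of members called (of 8, adjusted p under 0.05, limma) are given here where they moved by more than 1.5 times. For sick against wild type the count was 0 in gastrocnemius, 2 in quadriceps and 2 in tibialis. With sample quality weights it was 1, 4 and 1, with only the 2 groups in the fit 0 in tibialis, with the index of long transcripts as a covariate 0 in tibialis, and with all 32 libraries in 1 fit 2 in gastrocnemius. Leaving out 1 library gave 0 to 1, 0 to 4 and 0 to 2. For sick against healthy it was 0, 4 and 0. With sample quality weights it was 1 in gastrocnemius and 2 in tibialis, with only the 2 groups 1 in gastrocnemius and 0 in quadriceps, with the index 1 in gastrocnemius and 2 in quadriceps, with all 32 libraries 0 in quadriceps and 1 in tibialis, and with no filter on low counts 1 in tibialis. Leaving out 1 library gave 0 to 4 in quadriceps and 0 to 1 in tibialis. Between wild-type muscles, the index gave 1 for quadriceps against gastrocnemius and 2 for tibialis against quadriceps, for which quality weights gave 3 and leaving out 1 library 0 to 1. For healthy against wild type, wild-type tibialis against gastrocnemius and the interactions, the count was 0 under every alternative run. The cause of these shifts was not tested.

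Within a muscle, libraries of different states share only a number: same-numbered pairs had a median correlation of 0.00626 (6 of 29 over 0.1). With the replicate number as a block, the count was 1 for sick against healthy quadriceps, 0 for sick against wild-type tibialis and 1 for wild-type tibialis against quadriceps, and it changed no other count by over 1.5 times.

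Of the single fold changes under alternatives, 0 reversed with a call, 1766 kept direction and side of the threshold, 163 changed sign with no call in either fit, 45 lost and 26 gained a call. Dmd in tibialis ranged from 0.47 to 1.06 (adjusted p up to 0.205) and Dag1 from 0.37 to 0.76 (up to 0.186). The edgeR and DESeq2 alternatives were not run, because the raw columns, with marks for missing values, are not recorded as counts. With 3 sick libraries per muscle and as few as 61 counts, small changes of Sntb1 were not detectable.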
